A study of Rattus norvegicus with 2 samples.

Results

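The genes described here encode the enzymes and membrane proteins of the lysosome, 37 in all, chosen by name. Of these, 36 had at least 1 probe set annotated with their symbol alone, among 14217 such genes on the array. Npc1, which encodes a cholesterol carrier of the lysosomal membrane, was not analysed here. The study compared 2 populations of natural killer (NK) cells, lymphocytes that kill infected or altered cells, sorted from spleens of 9 PVG.7b rats aged 8 to 12 weeks. Both populations lacked CD3 and carried NKR-P1A. Those of the first carried the inhibitory receptor NKR-P1B and not Ly49s3, and those of the second carried the activating receptor Ly49s3 and not NKR-P1B. Both came from the same enrichment, in which cells bearing CD45RA, CD5, CD68, the kappa chain of immunoglobulin or the alpha-beta T cell receptor had been removed, and the sorted cells were more than 90% pure per the labels. No genetic change or drug treatment is named for either group. Each population was hybridised to 1 array, without replicates, so no difference could be tested and each one describes these arrays only. The sources used here do not say how the RNA of the rats was pooled.

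Lysosomes are acidic compartments in which hydrolases break down proteins, sugar chains and lipids delivered from the cell surface or from the cytosol. Their membranes are lined with heavily glycosylated proteins and hold a proton pump that keeps them acidic, and the transcription factor TFEB switches on many of their genes together. In NK cells the lytic granules that hold perforin and granzymes are secretory lysosomes, so the same membrane proteins and cathepsins surround and process the killing machinery.

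Most lysosomal genes had similar signals in both NK populations, 29 of the 34 with a signal above the floor on both arrays lying within 1.5-fold (85.3%, beside 90.3% of all such genes). The progranulin gene Grn and the lysozyme gene Lyz2 were the exceptions of more than 2-fold, and both were higher in NKR-P1B+ cells. The cathepsin genes Ctsh and Ctsl were higher there by a smaller margin, and the beta-glucuronidase gene Gusb was higher in Ly49s3+ cells. A gene was called measured where its signal was above a floor of 20.4 on at least 1 array, the 50th percentile of all signals, which held for 35 of the 36 lysosomal genes and for 9114 of all 14217 genes. Of the 35, 34 were above the floor on both arrays. Of all 35 lysosomal genes measured, 4, or 11.4%, were at least 1.5-fold higher in NKR-P1B+ cells, where 5.11% of all measured genes were. In the other direction it was 1 gene, or 2.86%, where 5.73% of all measured genes were. At 2-fold or more, both genes past that size were higher in NKR-P1B+ cells, in a background of 1.78% of all measured genes in that direction and 1.21% in the other. With counts this small, neither share was read as a property of lysosomal genes.

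Taken as NKR-P1B+ minus Ly49s3+, the log2 difference had a median of -0.06 over the 35 lysosomal genes and of -0.02 over all measured genes. Nominally 16 were higher in NKR-P1B+ cells and 19 in Ly49s3+ cells, against 4340 and 4753 of all 9114 measured genes. The differences of the lysosomal genes ran from -0.67 to 2.15 with an SD of 0.53, against an SD of 0.42 over all measured genes. Without Grn and Lyz2 the SD of the other 33 was 0.31. Of the 34 above the floor on both arrays, 18, or 52.9%, lay within 1.2-fold, as did 63.8% of all such genes. In cell populations measured in bulk, a lower signal cannot be told apart between fewer cells with a transcript and less of it per cell.

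All directions given here are relative to the deposited scale. When the arrays were scaled to the poly-A spikes, control RNAs added to the samples, this moved the median of all measured genes from -0.02 to 0.46. On that scale Grn was at 2.64, Lyz2 at 1.91, Ctsl at 1.07, Ctsh at 0.95 and Gusb at -0.18. This scaling lowers all Ly49s3+ signals by the same factor, so of the 5 only Gusb could have changed direction. Gusb kept its direction but was no longer 1.5-fold apart. The median of the lysosomal genes was then 0.43, again close to that of all genes.

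**Figure D1:**
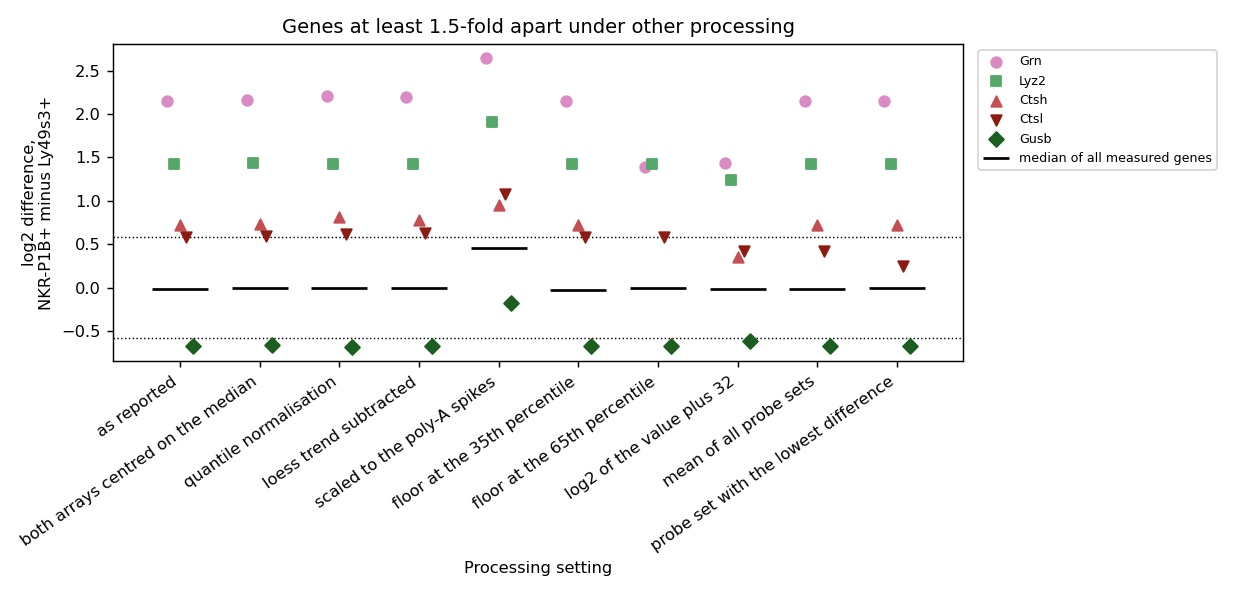
Log2 difference of the 5 genes at least 1.5-fold apart under the reported processing and 9 alternatives, with the median of all measured genes as a black line and dotted lines at 1.5-fold. Grn and Lyz2 stay above 1.5-fold in each, Gusb is within it once the arrays are scaled to the poly-A spikes, and Ctsh has no point where the floor is at the 65th percentile. Only Ctsl has more than 1 probe set, so the choices of probe set could move it alone.

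Without replicate arrays, the only spread at hand was that between probe sets of the same gene. It gave an SD of the log2 difference for a single probe set of 0.35 at mean signals from 20.4 to 60, 0.28 from 60 to 200, 0.21 from 200 to 1000, and 0.13 above. Such probe sets read the same RNA on the same arrays, so this SD leaves out the variation between rats, sorts and arrays. Against this SD, 16 of the 35 lysosomal genes differed by more than 1 SD, 6 by more than 2 SD (Grn, Lyz2, Gusb, Npc2, Ctsl and Ctsh) and 3 by more than 3 SD (Grn, Lyz2 and Gusb). The differences of all genes above the floor on both arrays spread wider, with SDs of 0.46, 0.42, 0.33 and 0.24 in the same ranges. The share of all genes past these limits was not counted, so the counts were not read as a property of lysosomal genes.

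**Figure D2:**
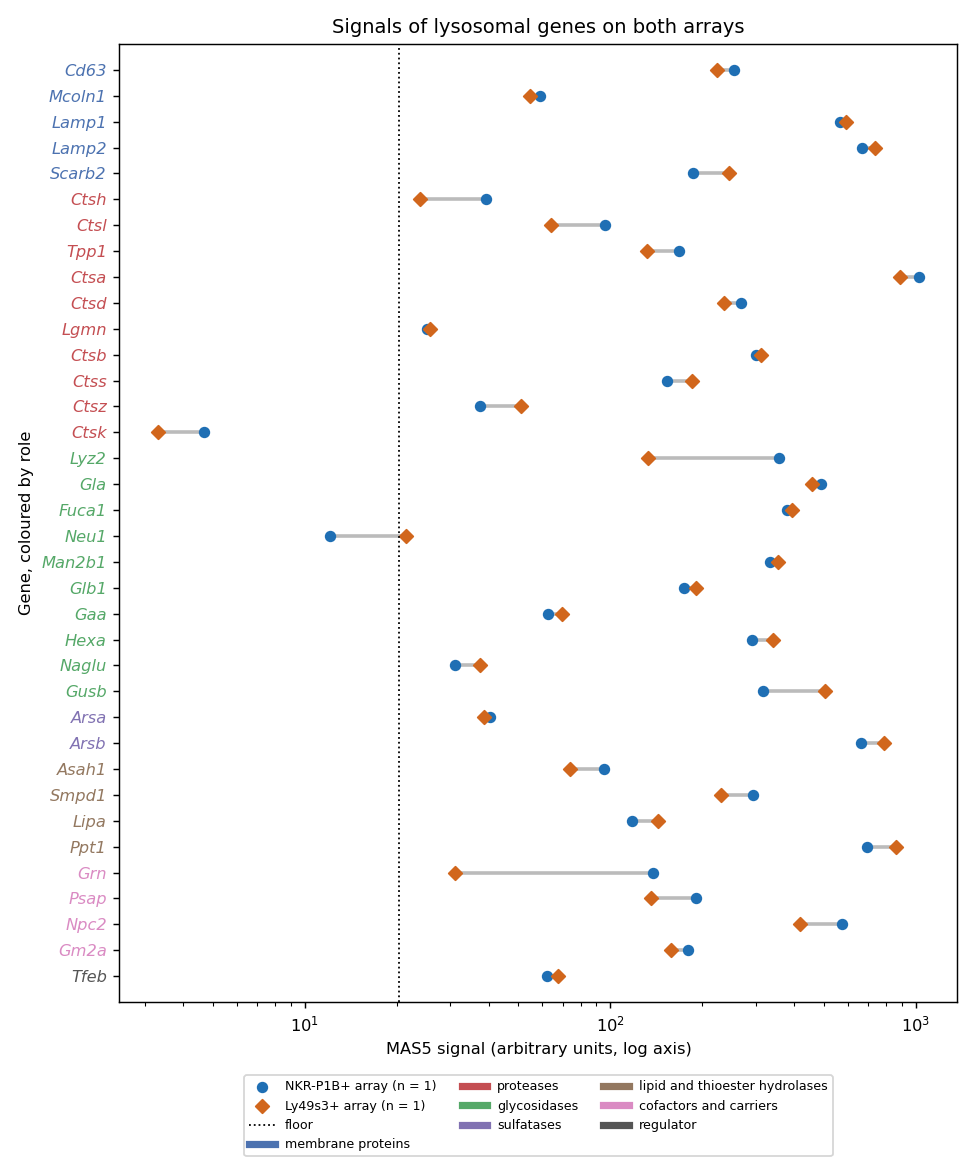
Signals of the 36 lysosomal genes with a probe set, grouped by role, with the NKR-P1B+ array as circles and the Ly49s3+ array as diamonds, on a log axis in arbitrary units. The dotted line is the floor of 20.4. The wide gaps are those of Grn (138 against 31.1) and Lyz2 (356 against 133), Neu1 straddles the floor, and Ctsk lies below it on both arrays.

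Grn, which encodes progranulin, had a signal of 138 in NKR-P1B+ cells and 31.1 in Ly49s3+ cells. Progranulin is a secreted glycoprotein that is taken up into lysosomes and cut there into granulins. The ratio was 4.45-fold, a log2 difference of 2.15 or 7.64 of the probe-set SDs, and the gene ranked 14 of 9114 toward NKR-P1B+ cells. Its single probe set allowed no check by another, and its lower signal lies in the range where the probe-set SD was 0.35.

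Lyz2, which encodes lysozyme, the enzyme that cuts bacterial cell walls and is abundant in macrophages and neutrophils, had 356 in NKR-P1B+ cells and 133 in Ly49s3+ cells. This was a 2.68-fold difference, 6.86 of the probe-set SDs, and rank 61 of 9114. Lyz2 too had 1 probe set.

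Because both genes are also high in macrophages, markers of other spleen cells were examined beside them. Of 15 macrophage and monocyte markers with a probe set, 13 were below the floor on both arrays, among them Cd68 (12.9 and 8.5), Csf1r (14.8 and 14.7), Cd14 (11.8 and 16.4), Adgre1 (0.3 and 4.0), Cd163 (2.7 and 1.8) and the complement genes C1qa, C1qb and C1qc. The summed signal of this list, much of it from markers below the floor, was 134 in NKR-P1B+ cells and 145 in Ly49s3+ cells. The brightest markers of the list, Aif1 (26.1 and 25.5) and Hmox1 (26.8 and 17.4), were near the floor. A signal below the floor is no measured absence, and the part of macrophages in the Grn and Lyz2 differences was not tested. Of 11 neutrophil and mast cell markers, 9 were below the floor on both arrays, S100a8 (5.0 and 1.9), S100a9 (8.9 and 6.5), Csf3r (0.9 and 2.0) and Camp (0.8 and 0.7) among them. Cpa3, a mast cell protease gene, had 10.0 and 21.0. Mmp9, a matrix protease gene, was the exception with 176 and 97.0, and the summed signal of that list was 217 and 158.

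Like Grn and Lyz2, some markers of antigen-presenting cells were higher in NKR-P1B+ cells, and others were not. The MHC class II gene RT1-Da was 3.54-fold higher in NKR-P1B+ cells (346 against 97.7), and the invariant chain gene Cd74 was 1.64-fold higher (197 against 120). Itgax, which encodes CD11c and is also found on NK cells, had 2281 and 1716. Of all measured genes 5.11% were at least 1.5-fold higher in NKR-P1B+ cells and 5.73% in Ly49s3+ cells. Of 15 markers of this kind 10 were measured, 3 at least 1.5-fold higher in NKR-P1B+ cells and 1 in Ly49s3+ cells. The third of the former was the class II gene RT1-Db1 (42.3 against 17.4) and the single one of the latter was the transcription factor gene Batf3 (83.2 against 4.2). The class II genes RT1-Ba (30.2 and 36.7) and RT1-DMa (26.3 and 30.6) were nominally higher in Ly49s3+ cells, and RT1-DMb (96.8 and 96.2) was nearly equal. Over the list, summed signals were 3097 and 2238, with Itgax the largest part of both. Of 10 B cell markers 4 were measured, 3 of them nominally higher in NKR-P1B+ cells. These were Cd22 (103 and 52.9), Fcrla (56.8 and 43.3) and Blnk (26.1 and 0.9, the second below the floor). Bank1, at 156 and 248, was higher in Ly49s3+ cells. Summed signals were 381 and 393, with Bank1 the largest part of both. Of 6 plasma cell markers 5 were measured and 3 were at least 1.5-fold higher in NKR-P1B+ cells, namely Jchain (98.1 against 33.4), Sdc1 (67.5 against 43.6) and Mzb1 (36.0 against 14.1). The plasma cell transcription factor genes Xbp1 (460.0 and 455) and Prdm1 (377 and 353), which NK cells also express, were within 1.5-fold, and the summed signals were 1057 and 916. The other probe sets of RT1-Db1 (4.4 and 3.6) and Sdc1 (16.1 and 10.5) were below the floor on both arrays. That of Jchain (22.2 and 11.7) was below it in Ly49s3+ cells. The part of other spleen cells in the Grn and Lyz2 differences was not tested.

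The sort itself showed in Klrb1b, which encodes NKR-P1B, at 1399 in NKR-P1B+ cells and 29.4 in the others. Klrb1a, which encodes the shared NKR-P1A, had 3740 and 3813, and the 11 NK cell markers above the floor on both arrays were all within 1.5-fold, Gzmm among them at 3922 and 3901. A further marker, Ncr3, had 21.1 and 11.4, the second below the floor. The T cell gene Cd3e was below the floor on both arrays (6.3 and 7.8), 7 of 10 T cell markers were measured, and the list summed to 2622 and 1164. Cd8a, which rat NK cells carry as well, had 2151 and 767. Cd5, a surface protein used for depletion in the enrichment, had 92.7 and 40.8, and Cd6 had 273 and 179. These 3 were at least 1.5-fold higher in NKR-P1B+ cells, and Cd3g, at 22.3 and 42.9, was 1.92-fold higher in Ly49s3+ cells. Of erythroid and platelet markers 3 of 9 were measured, Hbb with 276 and 153 and Pf4 with 30.9 and 26.6, and their summed signals were 368 and 237. The ratio of 3' to 5' signal was 11.9 and 13.2 for actin and 2.84 and 2.77 for Gapdh on the NKR-P1B+ and Ly49s3+ arrays, so signal toward the 5' end was low on both.

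The next genes are ordered by the role of their products, beginning with the membrane. Of 5 measured membrane protein genes none was 1.5-fold apart, and their median log2 difference was -0.06. Lamp1, which encodes the major glycoprotein of the lysosomal lining and appears at the surface of NK cells that degranulate, had 566 in NKR-P1B+ cells and 591 in Ly49s3+ cells. Its other probe sets were below the floor on both arrays (5.1 and 1.7, 0.5 and 0.7). Its partner Lamp2, which also serves in autophagy, had 667 and 734, and its other probe set had 275 and 259. Neither pair differed by more than 1 probe-set SD. Cd63, a tetraspanin of lysosomes and secretory granules, had 254 and 224. Mcoln1, a calcium channel of the lysosomal membrane, had 59.1 and 54.7. Scarb2, which encodes LIMP-2, the carrier that brings beta-glucocerebrosidase to lysosomes, had 187 and 244, a difference of -0.38 and the widest of this group.

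Of 9 measured protease genes 2 were at least 1.5-fold higher in NKR-P1B+ cells and none was in Ly49s3+ cells. Of all measured genes 5.11% and 5.73% were. The median of the 9 was 0.18, against -0.02 over all measured genes. With so few genes, this was not read as a property of proteases. Ctsh, an aminopeptidase that takes part in granzyme B processing in mice, was 1.64-fold higher (39.3 against 23.9), at signals near the floor. Ctsl, an endopeptidase, had 95.8 and 63.8, a ratio just past 1.5. Its other probe set had 42.0 and 35.4, a 1.19-fold difference, so that Ctsl past 1.5-fold rests on 1 of its probe sets. Ctsa, a carboxypeptidase that also shields beta-galactosidase and neuraminidase, had 1027 and 891. The aspartic protease gene Ctsd had 268 and 236, and Tpp1, a tripeptidyl peptidase, had 168 and 132. These 3 were nominally higher in NKR-P1B+ cells and within 1.5-fold. The cysteine protease gene Ctsb, whose product can sit at the surface of killer cells after degranulation, had 299 and 312. Ctss, which trims the invariant chain in antigen-presenting cells, had 154 and 185, the order opposite to that of Cd74. Ctsz, a carboxypeptidase, had 37.6 and 50.9, the largest difference of a protease toward Ly49s3+ cells at -0.44. Lgmn, the asparaginyl endopeptidase, had 25.1 and 25.7, and 22.7 and 23.8 in its other probe set. Ctsk, the collagen-degrading cathepsin of osteoclasts, was below the floor on both arrays at 4.7 and 3.3.

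On the deposited scale, 8 of 10 glycosidase genes were nominally lower in NKR-P1B+ cells, as were 4753 of all 9114 measured genes. The median of the 10 was -0.11, but past 1.5-fold there was 1 gene in each direction, Lyz2 and Gusb. Of all measured genes 5.11% and 5.73% were past it toward NKR-P1B+ and Ly49s3+ cells. Gusb, which encodes beta-glucuronidase and is often used as a reference gene in RNA assays, had 316.5 in NKR-P1B+ cells and 504 in Ly49s3+ cells. That was 1.59-fold higher in Ly49s3+ cells, 3.24 of the probe-set SDs, and rank 380 of 9114 in that direction. Gusb had 1 probe set. Hexa, the alpha subunit of beta-hexosaminidase, had 291 and 340, and Glb1, beta-galactosidase, had 174 and 191. Naglu, which removes N-acetylglucosamine from heparan sulfate, had 31.0 and 37.5. All 3 were within 1.5-fold and nominally higher in Ly49s3+ cells. Gaa, the acid glucosidase that degrades glycogen, had 62.6 and 69.5. Its other probe set ran the other way near the floor, with 21.4 and 19.6, the second below it. Man2b1, an alpha-mannosidase, had 333 and 353, while its dim second probe set had 24.7 and 36.0, a 1.46-fold difference. Fuca1, an alpha-fucosidase, had 379 and 395, the closest of this group. Gla, alpha-galactosidase A, was nominally higher in NKR-P1B+ cells in both probe sets, at 491 against 456 and 257 against 194. Neu1, which encodes the lysosomal sialidase, had 12.1 in NKR-P1B+ cells and 21.5 in Ly49s3+ cells. Since the first is below the floor and the second just above it, its ratio has only a bound of at least 1.05-fold, and its other probe set was below the floor on both (19.7 and 18.2).

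Both sulfatase genes were within 1.5-fold. Arsa, which desulfates sulfatide, had 40.3 and 38.6, and its other probe set was below the floor on both arrays (0.5 and 1.3). Arsb, which desulfates dermatan and chondroitin sulfate, had 661 and 785, and its other probe set, 87.9 and 94.4, ran the same way.

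The lipid and thioester hydrolases split evenly, with none 1.5-fold apart and a median of 0.03. Nominally higher in NKR-P1B+ cells were both enzymes of the route from sphingomyelin to sphingosine. These were Smpd1, the acid sphingomyelinase, with 293.5 and 230.1, and Asah1, the acid ceramidase, with 95.6 and 73.6 and, in its other probe set, 32.5 and 27.4. On the other side lay Lipa, the acid lipase that frees cholesterol from its esters, with 117.5 and 143, and Ppt1, which removes palmitate from proteins, with 694 and 861. The differences of the 4 genes ranged from -0.31 to 0.38.

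The cofactors and carriers were all 4 nominally higher in NKR-P1B+ cells, as were 4340 of all 9114 measured genes. The median log2 difference of the 4 was 0.47, although Grn alone was past 1.5-fold. Psap, the precursor of the saposins that help hydrolases reach sphingolipids, and also a binding partner of progranulin, had 191 and 136, a 1.40-fold difference. Npc2, the soluble cholesterol carrier that hands its cargo to the Npc1 protein, had 572 and 418.5, or 1.37-fold, which is 2.17 of the probe-set SDs. Gm2a, the activator that presents the ganglioside GM2 to beta-hexosaminidase, had 179 and 158. All 4 were nominally higher in NKR-P1B+ cells with each of the scalings tried, though the poly-A scaling could only widen their differences. Tfeb, the transcription factor of lysosomal genes, had 62.0 and 67.6, a difference of -0.12.

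**Figure D3:**
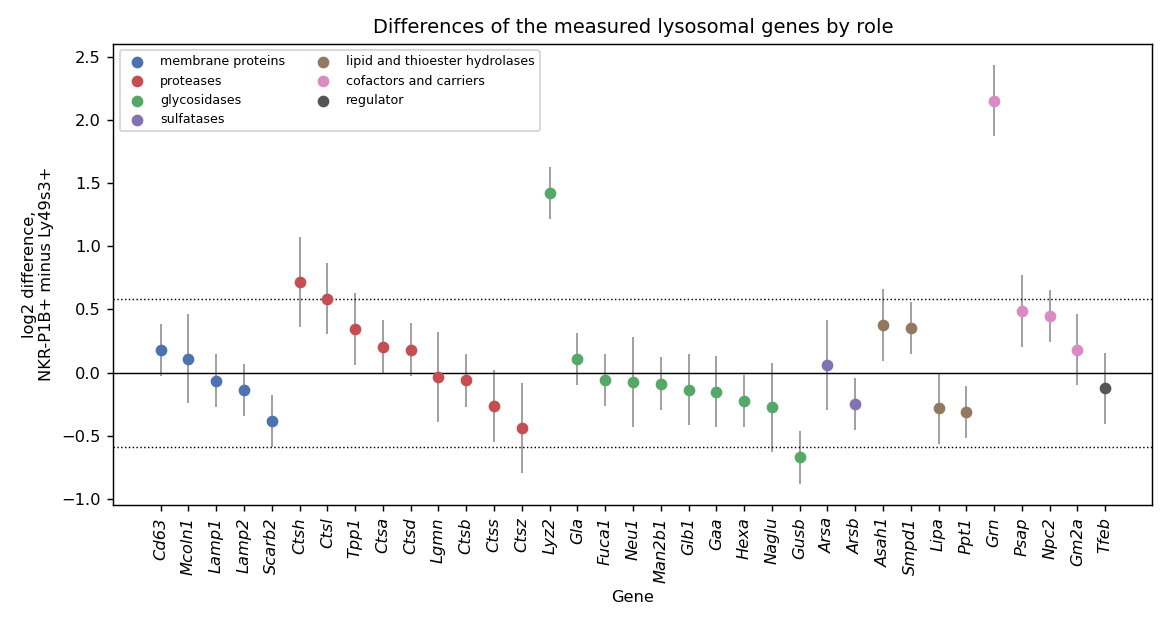
Log2 difference, NKR-P1B+ minus Ly49s3+, of the 35 measured lysosomal genes, coloured by role. Bars are 1 SD of a single probe set at that signal, from probe sets of the same gene and not from replicates, and dotted lines mark 1.5-fold. Grn at 2.15 and Lyz2 at 1.42 stand above the rest, and Gusb at -0.67 is the lowest.

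**Figure D4:**
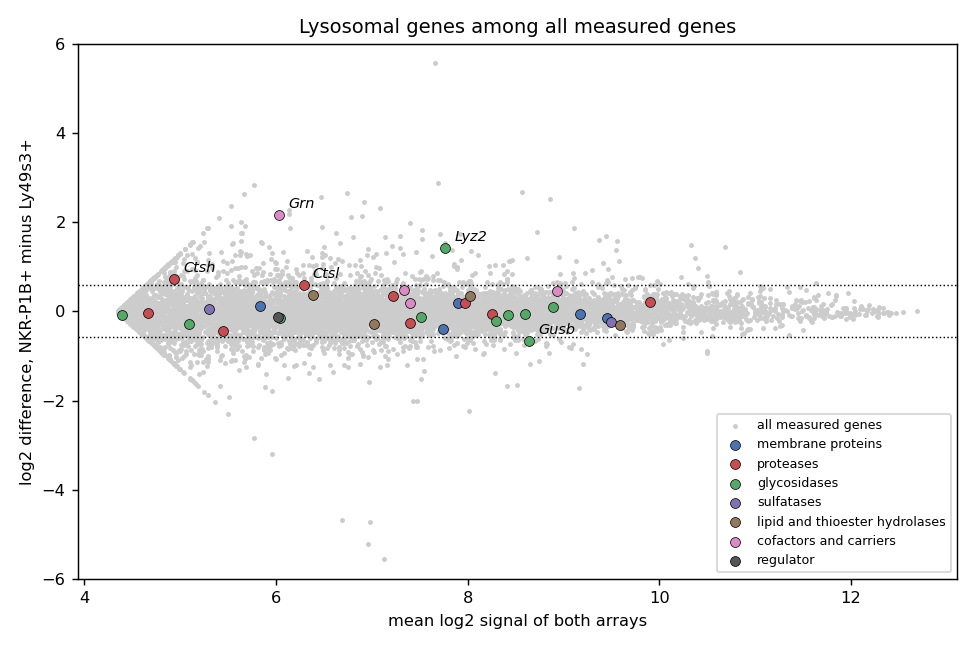
Log2 difference against mean log2 signal for all 9114 measured genes (grey) and the lysosomal genes (coloured by role), with dotted lines at 1.5-fold. Most lysosomal genes lie in the dense band around 0, and the 5 named genes are those at least 1.5-fold apart.

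Other genes of lysosome biology, taken from a list of 104 that holds none of the genes above, were also mostly within 1.5-fold. Of 80 measured, 5 were at least 1.5-fold higher in NKR-P1B+ cells and 2 in Ly49s3+ cells, or 6.25% and 2.5%, against 5.11% and 5.73% of all measured genes. Their median difference was 0.06. Among 20 other hydrolases, Siae, a sialate esterase, was 2.27-fold higher in Ly49s3+ cells (885 against 390.5), and its other probe set ran the same way (80.0 against 39.2). Ids, the iduronate sulfatase, had 1154 and 1116. Among 17 other membrane proteins, the lipid transporter gene Abca2 was 1.62-fold higher in Ly49s3+ cells (121 against 74.5), whereas Laptm5 (2880 and 2859) and Litaf (2424 and 1976) were within 1.5-fold. In the sorting machinery, 1 of 13 genes was past 1.5-fold. This was Sort1, the sorting receptor sortilin, which also takes up progranulin, with 39.5 in NKR-P1B+ cells and 19.4, below the floor, in Ly49s3+ cells, at least 1.94-fold. The other Sort1 probe set was below the floor on both arrays (10.8 and 9.2). The mannose 6-phosphate receptor gene M6pr had 524 and 479, and the retromer gene Vps29 had 514.5 and 595.

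The vacuolar ATPase, the proton pump, had 15 of 18 genes nominally higher in NKR-P1B+ cells on the deposited scale, where 4340 of all 9114 measured genes were. Their median was 0.11. The probe-set SD is that of a single difference and gives no spread for such a median, so this lean was not tested. Past 1.5-fold were 2, both higher in NKR-P1B+ cells, beside 5.11% of all measured genes in that direction. Atp6v1g1, a stalk subunit, was 2.05-fold higher there (162 against 79.1), and Atp6v0e2, a membrane subunit, 1.5-fold (170 against 113). Atp6v0e1 had 1072 and 1039, and Atp6v1f had 737 and 638. Of genes around TFEB and the mTORC1 kinase that docks on lysosomes, 12 were measured. Past 1.5-fold were 2, both higher in NKR-P1B+ cells, beside 5.11% of all measured genes in that direction. They were Flcn, the folliculin gene, at 620.5 and 399.6, and Tfe3, a close relative of Tfeb, at 98.9 and 65. The other Tfe3 probe sets were below the floor on both arrays (1.1 and 0.7, 5.4 and 8.8). Rheb (1601 and 1621) and Lamtor5 (737 and 769) were within 1.5-fold, and Mitf (11.9 and 13.6) and Tfec (3.7 and 2.3), the remaining relatives of Tfeb, were below the floor on both arrays.

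TFEB and TFE3 bind a palindrome with the core CACGTG, often preceded by T, so the windows from 250 bases before to 50 bases after the annotated start of each gene were searched for CACGTG and for TCACGTG on both strands, the longer motif always holding the shorter. RefSeq promoter sequences (GRCr8) matched 30 of the 37 lysosomal genes. CACGTG was present in 6 of these, or 20%, against 6.42% of all 33469 promoters in the table and 10.1% of the 7720 that belong to measured genes. TCACGTG was present in 5, or 16.7%, against 3.20% and 6.0%. In the list of other lysosomal genes 18 of 78 promoters, or 23.1%, held CACGTG. The 6 lysosomal genes were Lamp1, Cd63, Mcoln1, Ctsd, Gaa and Glb1, whose log2 differences between the NK populations ran from -0.15 to 0.18. The windows of Grn, Lyz2, Gusb, Ctsh and Ctsl, the genes at least 1.5-fold apart, held none. The start used matched that of the RefSeq gene for 17 of the 30 promoters, so a motif near another start could be missed. A match describes letters in a window and is no measured binding site.

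The promoters of the 3 genes more than 3 probe-set SDs apart are shown beside those of Lamp1 and Ctsd, which differed little and hold the motif more than once in the bases shown. Each is the 250 bases before the annotated start, 5' to 3' on the strand of the gene, with CACGTG in capitals. That of Grn lies at chr10:87887584-87887833 on the plus strand (GRCr8), that of Lyz2 at chr7:54798012-54798261 on the minus strand, that of Gusb at chr12:32337057-32337306 on the plus strand, that of Lamp1 at chr16:83075064-83075313 on the minus strand and that of Ctsd at chr1:206968822-206969071 on the minus strand.
Grn: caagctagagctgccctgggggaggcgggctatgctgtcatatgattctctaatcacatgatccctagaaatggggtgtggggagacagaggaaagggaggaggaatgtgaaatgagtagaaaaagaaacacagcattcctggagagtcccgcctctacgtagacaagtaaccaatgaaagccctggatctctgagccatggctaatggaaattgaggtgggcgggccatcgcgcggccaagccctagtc
Lyz2: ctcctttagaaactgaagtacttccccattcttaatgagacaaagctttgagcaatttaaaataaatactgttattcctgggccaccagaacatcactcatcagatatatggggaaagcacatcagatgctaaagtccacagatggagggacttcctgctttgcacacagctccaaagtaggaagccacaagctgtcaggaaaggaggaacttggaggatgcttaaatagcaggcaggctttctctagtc
Gusb: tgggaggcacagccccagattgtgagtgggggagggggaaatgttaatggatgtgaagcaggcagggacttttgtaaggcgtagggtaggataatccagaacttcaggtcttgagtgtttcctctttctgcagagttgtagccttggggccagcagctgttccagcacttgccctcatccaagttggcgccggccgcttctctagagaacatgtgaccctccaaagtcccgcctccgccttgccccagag
Lamp1: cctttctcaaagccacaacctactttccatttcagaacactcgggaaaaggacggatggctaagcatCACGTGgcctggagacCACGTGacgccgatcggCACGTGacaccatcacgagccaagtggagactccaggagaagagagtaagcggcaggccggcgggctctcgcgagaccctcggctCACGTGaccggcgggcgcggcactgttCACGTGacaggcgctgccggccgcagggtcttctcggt
Ctsd: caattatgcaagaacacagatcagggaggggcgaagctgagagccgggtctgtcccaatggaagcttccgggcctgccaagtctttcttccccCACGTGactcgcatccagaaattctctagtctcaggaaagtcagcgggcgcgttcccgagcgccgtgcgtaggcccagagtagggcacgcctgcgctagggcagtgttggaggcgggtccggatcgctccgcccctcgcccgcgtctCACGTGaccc
In Lamp1 the 5 matches begin at -183, -167, -150, -65 and -38 from the start, and in Ctsd the 2 matches begin at -157 and -10.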

How the data were processed

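Total RNA (3 ug) of each sorted population was made into biotinylated cRNA and hybridised to 1 Affymetrix rat array of 31099 probe sets, per the labels. The authors deposited linear intensity values, 1 per probe set and array, made with MAS5 per the submitters' processing notes. The sources used here name neither its version nor its scaling target, and no detection calls were used. Medians were 19.6 and 21.3 and the means after trimming 2% at each end 99.6 on both arrays, so both share a scale and genes were not centred. Both sample columns were used.

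Symbols came from the platform annotation: 20826 had 1 symbol, 436 several and 9831 none, and all 36 lysosomal symbols matched RefSeq (GRCr8) by gene number. Signals below the floor were set to it and converted to log2, and the probe set with the highest mean log2 represented a gene. The difference is NKR-P1B+ minus Ly49s3+. Where a value was at the floor, the ratio is a lower bound. With 1 array per population no p-value was computed, and precision is limited by the number of arrays. The 18 hybridisation spikes differed by 0.02 on average with an SD of 0.10 (log2). The genes, lists and settings were chosen with earlier results of these data known. Every lysosomal gene is named, as are genes of the other lysosome lists at least 1.5-fold apart and the 2 brightest of each list or marker list; other markers given were picked after their values were seen. Alternatives were 4 scalings, 3 treatments of low signals (floors at the 35th and 65th percentiles, log2 of the value plus 32) and 2 choices of probe set. The gene step was tested on simulated data with changes well past 1.5-fold in genes well above the floor. That test does not cover calls near 1.5-fold or near the floor. Analysis used Python 3.11.15, pandas 2.3.3 and statsmodels 0.14.6.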

Additional observations from a re-analysis of the deposited data

How the results depend on the processing

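No paired analysis was possible because each population has 1 array. Centring on the median, quantile normalisation, subtracting a loess trend (span 0.3) and the floors at the 35th and 65th percentiles (9.6 and 52.8) kept the counts of lysosomal genes past 1.5-fold within 1.5 times. With the lower floor 6.90% and 9.81% of all measured genes were past it toward NKR-P1B+ and Ly49s3+ cells. With the higher floor these shares were 3.89% and 3.46%, and 29 lysosomal genes were measured. No gene past 1.5-fold changed direction under any alternative, though poly-A scaling could have reversed Gusb alone. Scaling to the poly-A spikes gave 15 genes past 1.5-fold toward NKR-P1B+ cells and 0 toward Ly49s3+ cells with a median of 0.43, and for the other lysosomal list 32 and 1 with a median of 0.55. On that scale 33.0% of all measured genes were 1.5-fold higher in NKR-P1B+ cells and 1.04% in Ly49s3+ cells. The 17 spikes behind it differed by -0.49 on average with an SD of 0.31. With log2 of the value plus 32, which shrinks ratios of dim genes, 2 lysosomal genes were past 1.5-fold on the NKR-P1B+ side, and 2 and 1 of the other list in the 2 directions. The shares of all measured genes fell as well, to 3.06% toward NKR-P1B+ cells and 2.56% toward Ly49s3+ cells. Grn was then at 1.43, and at 1.39 with the higher floor. Taking the probe set with the lowest difference gave a median of 0.062, and Ctsl was at 0.25. Ctsl was past 1.5-fold in 6 of 9 alternatives, Ctsh in 7 of 8, Gusb in 8 of 9, and Grn and Lyz2 in all 9. Not every alternative could move a gene. Grn, Lyz2, Gusb and Ctsh have 1 probe set each, so the choices of probe set left them unchanged. All 5 lie above the lower floor on both arrays, and Lyz2, Gusb and Ctsl above the higher one, so these floors left them unchanged too.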

Other observations

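Genes that act on lysosomal proteases or travel in the same granules were measured too. Cstb, which encodes the cathepsin inhibitor cystatin B, was 1.62-fold higher in NKR-P1B+ cells (263 against 163), the same array as Ctsh and Ctsl. Cst7, which encodes cystatin F, an inhibitor carried in the granules of killer cells, had 617 there and 765 in Ly49s3+ cells. Of 4 measured inhibitor genes 1 was past 1.5-fold, and of 10 lytic granule cargo genes also 1, both toward NKR-P1B+ cells. Of all measured genes 5.11% were. The cargo gene was Gzmb at 3973 and 2549, and its other probe set had 2532 and 1573. Gzmk, a granzyme gene, had 3418 and 3736. Ctsc, which encodes the protease that activates granzymes, had 465 and 502, a log2 difference of -0.11, within the probe-set SD of 0.21 at that signal. Prf1 (4024 and 3006) and Gzma (3514 and 2500) were within 1.5-fold. Nominally 6 of the 10 cargo genes were higher in NKR-P1B+ cells and 4 in Ly49s3+ cells. Ctsc, Prf1 and Gzma were named after their values were seen.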
